A study of Mus musculus with 12 samples.

Results

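The mitochondrial carrier family Slc25 was followed across 4 groups of mouse distal colorectal samples profiled on 1-colour Agilent arrays. Members were all genes whose symbol, read from the RefSeq accession of a non-control probe, was Slc25a followed by a number. RefSeq listed 47 such genes, and 45 of them had a probe among the 32168 genes on the array; no probe was matched to Slc25a34 or Slc25a53. Of these 45, 37 passed the filter on dim probes (well above background throughout 1 or more groups of 3) and were among the 18917 genes tested.

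Slc25 proteins are small carriers, nearly all in the inner mitochondrial membrane, that exchange nucleotides, phosphate, carboxylates, amino acids, cofactors and metals between the cytosol and the mitochondrial matrix. Through them ATP leaves and ADP enters, citrate leaves for lipid synthesis, reducing equivalents move by the malate-aspartate shuttle, and fatty acids arrive as acylcarnitines. Absorptive colonocytes are known for relying on mitochondrial oxidation of short-chain fatty acids such as butyrate.

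The mice were female BALB/c, 5 to 7 weeks old, and all tissue was taken at day 100. AOM (azoxymethane) is an alkylating colon carcinogen and DSS (dextran sodium sulphate) is a polymer that injures the colonic epithelium. The AOM/DSS group had 1 injection of AOM at 12.5 mg/kg and then DSS in the drinking water for 5 days of each 21, in 3 cycles from day 5. The AOM group had 6 weekly injections at 10 mg/kg, the DSS group had the DSS cycles alone, and the control group had neither agent. Each group had 3 arrays. AOM/DSS samples were clipped neoplasms kept in RNA storage solution, whereas the other samples were scraped epithelium put into Trizol, so that tissue, collection and treatment cannot be told apart in a comparison with AOM/DSS; the AOM schedule differed too. The labels do not say that replicates were separate mice, so the p-values rest on the spread among these samples, which may be technical.

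Before scaling, the 75th percentile of processed signal ranged from 1115 to 1185 for AOM/DSS and from 393.5 to 694.1 for the other 9 arrays, and 62.6 to 66.2% against 52.1 to 59.3% of probes were well above background. Epithelial markers were detected in every group, but 7 of 9 were lower in AOM/DSS than in control, as were 8 of 9 markers of absorptive colonocytes. The log2 of the summed linear levels of these colonocyte markers was 5.96 to 6.43 against 9.32 to 10.50. Sums of other marker lists were taken in the same way, so that the brightest markers weigh most. Neutrophil markers were higher (7 of 7 tested; 6.04 to 7.71 against -1.04 to 1.04), as were 5 of 8 macrophage, 5 of 7 fibroblast and 2 of 6 endothelial markers. Of B and plasma cell markers 3 of 7 were lower in AOM/DSS than in control, as were 9 of 11 of exocrine pancreas. No marker of T cells or smooth muscle was called between these groups. After AOM, 6 of 7 neutrophil markers (3.13 to 4.39), 6 of 8 macrophage, 4 of 7 fibroblast and 3 of 6 endothelial markers were higher than in control, and 4 of 9 markers of absorptive colonocytes and 5 of 11 of exocrine pancreas were lower. Control replicate 3 and DSS replicate 1 held the highest summed exocrine pancreas markers (9.93 and 7.29, against 6.47 and 6.70 in the other controls and 3.34 to 3.59 in AOM/DSS). The part of these cell types in the carrier results was not tested, and in bulk samples fewer cells of a type and less RNA per cell cannot be told apart. The 12 arrays lay on 3 slides: AOM and AOM/DSS replicates 1 and 2 on the first, AOM replicate 3 and all DSS arrays on the second, and AOM/DSS replicate 3 and all controls on the third.

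Levels are log2 processed signal relative to the array's own 75th percentile, from the brightest probe of each gene, and are compared only between groups for the same probe. Of the 45 members, 32 were well above background on all 12 arrays. Slc25a15, Slc25a27 and Slc25a30 were so on 9, each on all AOM and AOM/DSS arrays; Slc25a48 was so on 9 and on no control array; Slc25a23 was so on the 6 AOM and AOM/DSS arrays alone. The 8 members that were not tested were Slc25a42, above background on 5 arrays, and Slc25a2, Slc25a18, Slc25a21, Slc25a31, Slc25a41, Slc25a43 and Slc25a54, whose brightest probe was above background on none. The untested genes include the germ-cell adenine nucleotide translocase Slc25a31 and the oxodicarboxylate carrier Slc25a21. No member was saturated on any array.

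Carriers moved in both directions in the neoplasms, also within groups of like substrate. A gene was called where limma's moderated test, run on all 18917 genes over the 12 arrays, gave a Benjamini-Hochberg adjusted p under 0.05. Between AOM/DSS and control 7 of the 37 tested members were higher and 12 were lower, where 34.7% of all genes were called (17.3% higher and 17.5% lower). Of the 7 higher members, 4 (Slc25a23, Slc25a27, Slc25a30 and Slc25a48) were not well above background throughout the controls and passed the filter through other groups. After normexp background correction the differences of Slc25a23, Slc25a30 and Slc25a48 turned negative. A separate fit took only genes above background on all 12 arrays, 32 members among them. It called 3 members higher and 13 lower, and 5375 of all 13718 genes. Of these 16 members, 15 were also called in the fit of 18917 genes. Differences are in log2 units, ± SE over 3 arrays a group where an error is given. The median member difference was -0.20, against 0.03 for all genes. The 4 groups differed for 19 of 37 members by limma's F test, and for 52.6% of all genes.

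After AOM alone 6 members were higher and 6 lower than in control (32.4% of all genes called, 14.8% higher and 17.6% lower). The median member difference was -0.11, against -0.01 for all genes. The separate fit of genes above background on all 12 arrays called 3 of its 32 members higher and 7 lower. It called 4614 of all 13718 genes. After DSS alone 1 was higher and none lower (0.328% of all genes called, 0.159% higher and 0.169% lower; median -0.11 against -0.02), with 7 members at an unadjusted limma p under 0.05. Against the AOM group, AOM/DSS had 3 members higher and 7 lower (37.2% of all genes called, 19.5% higher and 17.7% lower; median -0.10 against -0.04). Against the DSS group it had 5 higher and 6 lower (35.9% of all genes called, 17.7% higher and 18.3% lower; median -0.14 against 0.04). Of these 5, Slc25a23 and Slc25a27 were not well above background throughout the DSS arrays and passed the filter through other groups. The fit of genes above background on all 12 arrays called 9 of its 32 members against DSS and 10 against AOM. It called 5425 and 5344 of all 13718 genes in these comparisons. Between DSS and AOM limma called no member (0.0106% of all genes called, all lower), and 9 reached an unadjusted p under 0.05. The departure of AOM/DSS from the sum of the single-agent differences was called above 0 for 5 members and below 0 for 4 (35.3% of all genes called, 19.5% above and 15.7% below), and for 2 and 7 under median scaling. Median scaling called 7164 of all 18917 genes for the departure. It put the median departure of all genes at -0.50 in place of -0.10. These comparisons share groups, so their counts are not independent of each other.

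**Figure D1:**
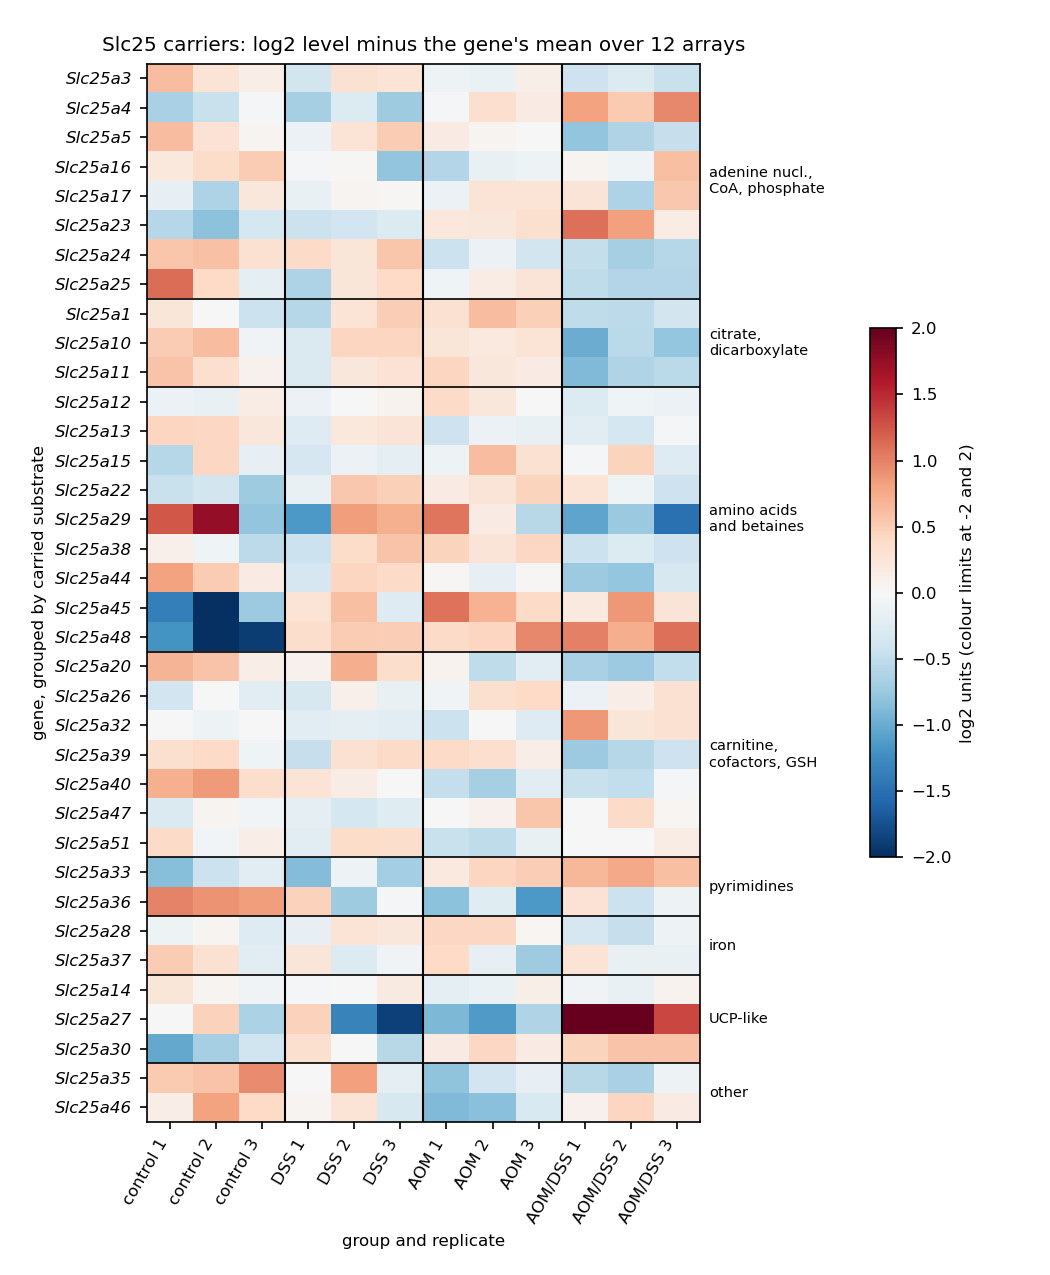
Levels of 36 of the 37 tested Slc25 carriers on each of 12 arrays, as log2 units above (red) or below (blue) the gene's mean over all arrays, with genes grouped by carried substrate and colour limits at -2 and 2. Slc25a48 was lowest on the 3 control arrays (its sign turned after normexp background correction), Slc25a27 was highest on the 3 AOM/DSS arrays, and Slc25a10 and Slc25a11 were lowest on the AOM/DSS arrays.

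The level ranges of 22 of 37 members did not overlap between AOM/DSS and control, where 52.5% of all genes did not. The counts for the other comparisons were 20 for AOM against control (49.2% of all genes), 8 for DSS against control (18.4%), 22 for AOM/DSS against AOM (59.5%), 15 for AOM/DSS against DSS (49%) and 8 for DSS against AOM (18.5%). Scaling moved the split of directions. Scaling to the array median put the median of all genes at -0.36 in place of -0.04 between AOM/DSS and AOM and at 0.16 in place of -0.01 between AOM and control. Under it 1 member was higher and 9 lower in AOM/DSS than in AOM, whereas quantile normalization gave 5 higher and 2 lower. Of 18917 genes, 7482 and 6490 were called between AOM/DSS and AOM under median scaling and quantile normalization. Between AOM and control, median scaling gave 6 members higher and 3 lower, with 5562 of all genes called.

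Slide and group overlapped in part. With slide as a block limma called 3 of 37 members between AOM/DSS and control (Slc25a4 and Slc25a48 higher, Slc25a24 lower; 11.7% of all genes called) and 3 between AOM/DSS and AOM (Slc25a27 and Slc25a46 higher, Slc25a11 lower; 15.1%). It called none for AOM against control (0.0211% of all genes called), DSS against control (0.0106%), AOM/DSS against DSS (2.31%), DSS against AOM (0.00529%) or the departure (0.0106%), where 4, 1, 8, 4 and 3 members had an unadjusted p under 0.05. Neither AOM nor DSS shared a slide with the controls. Single arrays moved several counts by more than 1.5 times. Without DSS replicate 1, 18 members were called between AOM/DSS and DSS, 5 between DSS and control and 15 for the departure. The counts of all genes rose too, to 8886, 3192 and 8737 of 18967. With all arrays they were 6795, 62 and 6669 of 18917. Without DSS replicates 2 or 3 the member counts were 7 and 6 between AOM/DSS and DSS, 0 and 0 between DSS and control, and 3 and 4 for the departure. Of all genes 4737 and 3355, 16 and 9, and 3590 and 3856 were called. Without AOM/DSS replicate 1 the member counts were 2 between AOM/DSS and AOM, 6 between AOM/DSS and DSS, 4 for the departure and 12 for the F test. For the first 3 of these, 3383, 3895 and 3903 of 19132 genes were called. No count of all genes is given for the F test in this fit, so its 12 cannot be set against the whole array. Between AOM/DSS and AOM 4 members were called without AOM replicate 1 or 2 or AOM/DSS replicate 2, and 6 without AOM replicate 3. Of all genes 4460, 4473, 4338 and 5615 were called in these fits. Between AOM and control 5 members were called without AOM replicate 2 and 6 without control replicate 1 or 2 (1973, 2367 and 2773 of all genes). Without AOM replicate 2 no member was called between DSS and control (28 of all genes). Without control replicate 3 there were 2 (1362 of all genes), with 5 for the departure (6425 of all genes).

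**Figure D2:**
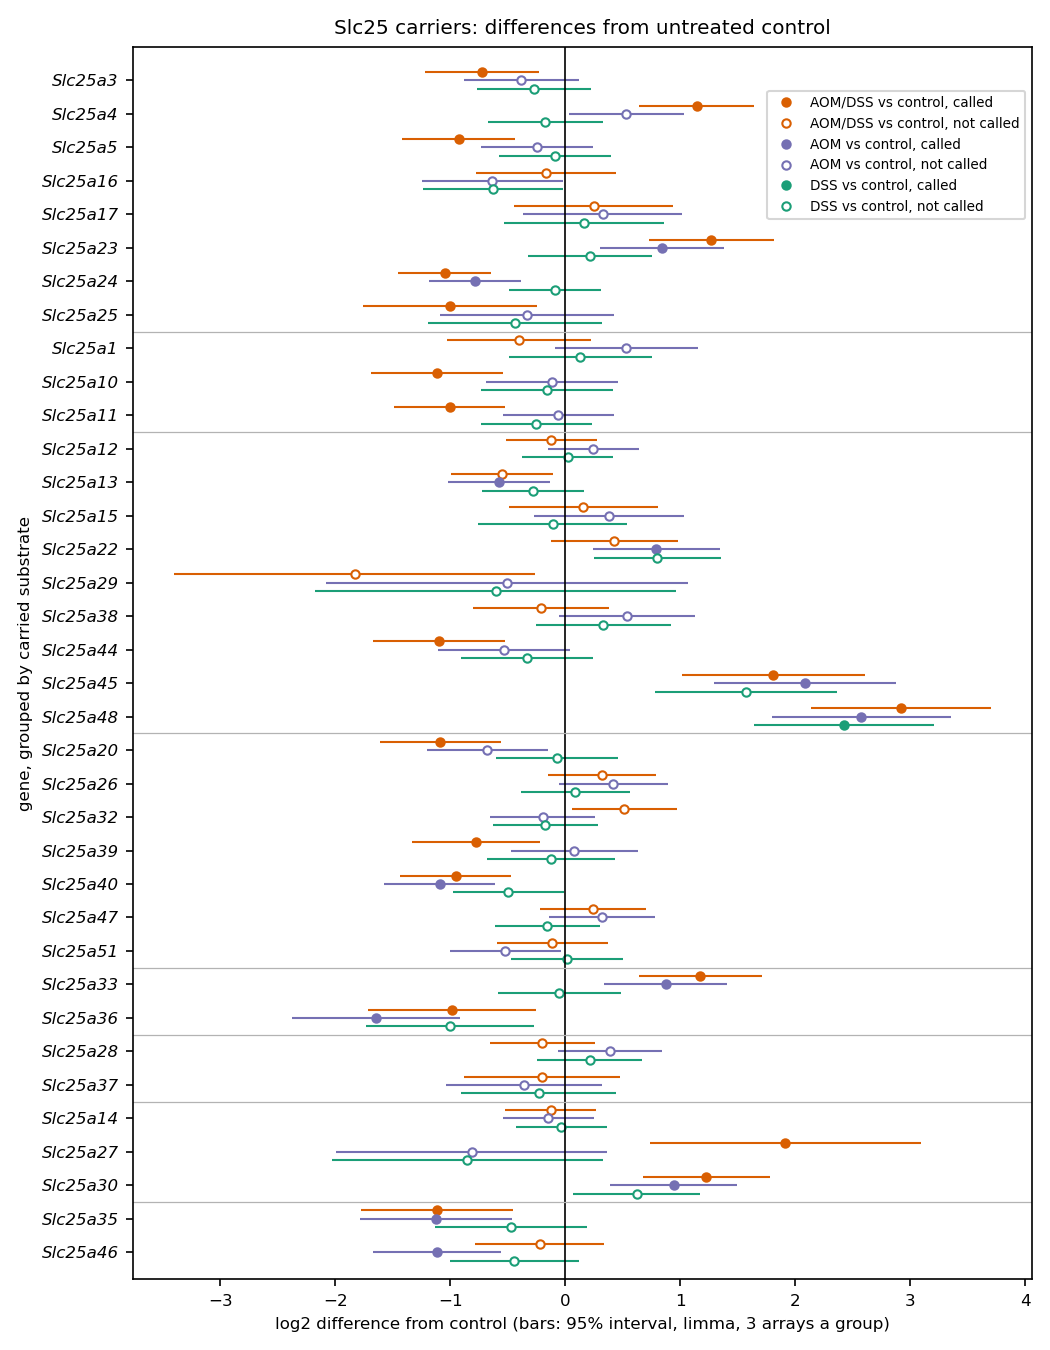
Log2 differences from control of 36 of the 37 tested Slc25 carriers in AOM/DSS (orange), AOM (purple) and DSS (green), with 95% intervals from limma over 3 arrays a group; filled points had an adjusted p under 0.05. In AOM/DSS 7 members were called higher and 12 lower, after AOM 6 and 6, and after DSS Slc25a48 alone.

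Among the 8 tested carriers of adenine nucleotides, coenzyme A and phosphate, 2 were higher and 4 lower in AOM/DSS than in control (median -0.45; of all genes 17.3% were higher and 17.5% lower). The pair of ADP/ATP translocases expressed in the colon moved apart. Slc25a4 (Ant1) and Slc25a5 (Ant2) exchange cytosolic ADP for matrix ATP; the first is known as the form of heart and muscle and the second as the form of proliferating cells. Slc25a4 levels were 3.88, 4.07 and 4.49 in the controls, 3.86, 4.24 and 3.81 after DSS, 4.50, 4.85 and 4.68 after AOM and 5.33, 5.04 and 5.48 in the AOM/DSS neoplasms. The 3 neoplasms lay above every other array. Slc25a4 was higher in AOM/DSS than in control by 1.14 ± 0.23 (adjusted p = 0.0037) and than in DSS by 1.32 ± 0.23 (adjusted p = 0.0027) in limma's test, and both calls held with any 1 array left out. A second Slc25a4 probe differed from control by 2.44. AOM/DSS replicate 3 exceeded the controls on its own slide by 1.34, and the difference with slide as a block was 1.34 ± 0.35 (adjusted p = 0.042).

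Slc25a5 levels were 7.87, 7.54 and 7.30 in the controls, 7.14, 7.53 and 7.77 after DSS, 7.41, 7.31 and 7.25 after AOM and 6.47, 6.66 and 6.80 in the AOM/DSS neoplasms. The neoplasms lay below every other array on this scale. Slc25a5 was lower in AOM/DSS than in control (-0.93 ± 0.22, adjusted p = 0.009), than in DSS (-0.84 ± 0.22, adjusted p = 0.016) and than in AOM (-0.68 ± 0.22, adjusted p = 0.035) in limma's test. These falls rested on the scaling: under quantile normalization the difference from control was -0.23 (adjusted p = 0.3), that from DSS -0.13 (adjusted p = 0.55), and that from AOM 0.0011 (adjusted p = 0.997), with the sign turned. The difference from control, with slide as a block, was -0.77 ± 0.34 (adjusted p = 0.17). The call against AOM ended without any 1 of the AOM or AOM/DSS arrays (adjusted p up to 0.12), and that against DSS without AOM/DSS replicate 1 or DSS replicate 3 (up to 0.071). The translocases are close homologues, and cross-hybridisation between their probes was not tested.

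The start regions of both genes are shown because their levels moved in opposite directions, with 250 bases before and 50 after the RefSeq start on GRCm38.p6. Slc25a4 lies on the minus strand at chr8:46211013-46211312 and Slc25a5 on the plus strand at chrX:36795347-36795646. Capitals mark matches on either strand to the CCAAT box (CCAAT or ATTGG), the E-box (CACGTG), the NRF1 half-site (GCGCATGC or GCATGCGC), the ETS core (CCGGAAG or CTTCCGG) and the estrogen-related receptor element (CAAGGTCA or TGACCTTG).
Slc25a4: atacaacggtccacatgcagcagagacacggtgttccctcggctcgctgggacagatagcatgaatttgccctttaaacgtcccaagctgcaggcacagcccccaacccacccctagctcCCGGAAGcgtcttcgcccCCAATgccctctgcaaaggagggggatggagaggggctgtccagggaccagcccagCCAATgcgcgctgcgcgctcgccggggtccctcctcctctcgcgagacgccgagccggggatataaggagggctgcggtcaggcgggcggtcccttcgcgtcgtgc
Slc25a5: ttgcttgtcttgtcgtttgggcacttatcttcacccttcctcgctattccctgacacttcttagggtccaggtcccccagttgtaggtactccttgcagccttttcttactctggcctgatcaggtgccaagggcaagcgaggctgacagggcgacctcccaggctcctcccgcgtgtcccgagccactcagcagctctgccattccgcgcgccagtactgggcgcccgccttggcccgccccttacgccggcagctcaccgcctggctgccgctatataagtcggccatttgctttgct
The Slc25a4 window held 1 ETS core and 2 CCAAT boxes, and the Slc25a5 window held none of the 5 motifs. Among all 32851 RefSeq windows of this length 37.4% held a CCAAT box and 8.86% an ETS core. For 34 members 43 windows were found, some genes having more than 1. Of these 43 windows 20 held a CCAAT box, 7 an ETS core and 8 an E-box (7.15% of all windows). An NRF1 half-site was in 2 (2.71% of all windows) and an estrogen-related receptor element in 0 (1.56%). A match is a run of letters and no evidence of binding.

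The calcium-regulated ATP-Mg/phosphate carriers also moved apart, except after normexp background correction. These carriers set the adenine nucleotide content of the matrix, and calcium binds to their cytosolic domain. Slc25a24 levels were 3.71, 3.74 and 3.45 in the controls, 3.53, 3.39 and 3.70 after DSS, 2.72, 3.04 and 2.78 after AOM and 2.67, 2.49 and 2.59 in the AOM/DSS neoplasms. Both AOM groups lay below every control and DSS array. Slc25a24 was lower than control (-1.05 ± 0.18, adjusted p = 0.0018) in AOM/DSS and (-0.79 ± 0.18, adjusted p = 0.013) after AOM, and AOM/DSS was lower than DSS (-0.96 ± 0.18, adjusted p = 0.004) in limma's test; these calls held with any 1 array left out. The AOM call was lost under median scaling (-0.62, adjusted p = 0.067). Blocking on slide gave an AOM/DSS difference of -1.05 ± 0.29 (adjusted p = 0.0496).

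Slc25a23 levels were -4.98, -5.24 and -4.77 in the controls, -4.85, -4.80 and -4.68 after DSS, -4.19, -4.18 and -4.09 after AOM and -3.32, -3.60 and -4.26 in the AOM/DSS neoplasms. All AOM and AOM/DSS arrays lay above all control and DSS arrays, on none of which Slc25a23 was well above background. The AOM/DSS neoplasms exceeded control by 1.27 ± 0.24 (adjusted p = 0.0031; at least 1.16-fold) and DSS by 1.05 ± 0.24 (adjusted p = 0.0097; at least 1.29-fold) in limma's test. A bound sets a probe that is not above background to the lowest signal that was so on its array. AOM exceeded control by 0.84 ± 0.24 (adjusted p = 0.027), without a bound above 1, and this call ended without any 1 AOM array or control replicate 1 or 2 (adjusted p up to 0.096). With AOM and control on different slides, blocking on slide left an AOM difference of 9.1e-05 ± 0.38 (adjusted p = 1) and an AOM/DSS difference from control of 0.73 ± 0.29 (adjusted p = 0.13). After normexp background correction the 3 differences turned negative, at -1.15, -0.81 and -1.01.

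Slc25a25, of the same kind, was lower in AOM/DSS than in control (-1.00 ± 0.34, adjusted p = 0.042). Slc25a3, which brings in phosphate for ATP synthesis, was lower (-0.73 ± 0.23, adjusted p = 0.03). Under quantile normalization the Slc25a3 difference was -0.17 (adjusted p = 0.5), and the Slc25a25 call ended under median scaling (-1.16, adjusted p = 0.0501). Both calls ended with slide as a block (-0.80 and -1.03), without any 1 AOM/DSS array and without control replicate 1 or 2 (adjusted p up to 0.11 for Slc25a3); the Slc25a25 call also ended without any 1 AOM array or DSS replicate 2 (up to 0.16). Slc25a16, a coenzyme A carrier, and the peroxisomal carrier Slc25a17 were not called in any pairwise comparison, with AOM/DSS minus control at -0.17 and 0.25.

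Of the 3 carriers of carboxylates for the citric acid cycle and lipid synthesis, 2 were lower in the neoplasms than in control (17.5% of all genes were lower). Slc25a10 exchanges dicarboxylates such as malate and succinate for phosphate, and Slc25a11 exchanges oxoglutarate for malate in the malate-aspartate shuttle. Slc25a10 levels were 4.54, 4.66 and 3.97 in the controls, 3.76, 4.47 and 4.47 after DSS, 4.28, 4.23 and 4.32 after AOM and 3.04, 3.50 and 3.27 in the AOM/DSS neoplasms. Every neoplasm lay below every other array. Slc25a10 was lower in AOM/DSS than in control (-1.12 ± 0.26, adjusted p = 0.0079), than in AOM (-1.00 ± 0.26, adjusted p = 0.016) and than in DSS (-0.96 ± 0.26, adjusted p = 0.018) in limma's test. The call against AOM ended without AOM/DSS replicate 1 (adjusted p = 0.062) and that against DSS without AOM/DSS replicate 1, DSS replicate 2 or DSS replicate 3 (up to 0.073). Its difference from control with slide as a block was -1.12 ± 0.41 (adjusted p = 0.11).

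Slc25a11 levels were 5.23, 5.00 and 4.76 in the controls, 4.38, 4.90 and 4.95 after DSS, 5.09, 4.89 and 4.82 after AOM and 3.78, 4.06 and 4.12 in the AOM/DSS neoplasms. Here too the neoplasms formed the lowest group, with no overlap. Slc25a11 was lower in AOM/DSS than in control (-1.01 ± 0.22, adjusted p = 0.0058), than in AOM (-0.95 ± 0.22, adjusted p = 0.011) and than in DSS (-0.76 ± 0.22, adjusted p = 0.024) in limma's test. Quantile normalization gave -0.57 (adjusted p = 0.013) against control and -0.29 (adjusted p = 0.14) against DSS. The call against DSS also ended without AOM/DSS replicate 1 or 2 or DSS replicate 2 or 3 (up to 0.093). With slide as a block the difference from AOM was -1.07 ± 0.29 (adjusted p = 0.0455) and that from control -0.88 ± 0.34 (adjusted p = 0.13).

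Both genes have their start on chromosome 11, Slc25a10 on the plus strand at chr11:120491587-120491886 and Slc25a11 on the minus strand at chr11:70646990-70647289 (GRCm38.p6, RefSeq). Their start regions are shown because these carriers were low in the neoplasms against all 3 other groups; capitals mark the same motifs as above. The Slc25a11 window is that of a transcript start inside the gene's outermost RefSeq bound.
Slc25a10: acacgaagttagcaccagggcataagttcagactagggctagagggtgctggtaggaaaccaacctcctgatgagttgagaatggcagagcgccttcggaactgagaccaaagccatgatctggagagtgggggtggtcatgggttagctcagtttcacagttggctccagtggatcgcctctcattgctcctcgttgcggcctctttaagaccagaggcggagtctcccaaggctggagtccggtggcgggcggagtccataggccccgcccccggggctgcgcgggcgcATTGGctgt
Slc25a11: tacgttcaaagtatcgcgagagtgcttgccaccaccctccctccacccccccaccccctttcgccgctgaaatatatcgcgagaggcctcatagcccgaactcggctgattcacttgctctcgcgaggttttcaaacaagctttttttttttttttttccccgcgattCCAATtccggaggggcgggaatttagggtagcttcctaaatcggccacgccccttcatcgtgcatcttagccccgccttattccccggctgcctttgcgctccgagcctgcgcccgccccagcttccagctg
Each window held 1 CCAAT box and none of the other 4 motifs.

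Slc25a1, the citrate carrier that feeds cytosolic lipid synthesis, differed by group in another way. Slc25a1 levels were 3.30, 3.06 and 2.64 in the controls, 2.49, 3.34 and 3.56 after DSS, 3.37, 3.68 and 3.53 after AOM and 2.55, 2.55 and 2.69 in the AOM/DSS neoplasms. The AOM arrays lay above the neoplasms without overlap, and control replicate 3 and DSS replicate 1 fell within or below the neoplasms' range. AOM/DSS was lower than AOM (-0.94 ± 0.28, adjusted p = 0.027) in limma's test, and its difference from control was -0.40 ± 0.28 (adjusted p = 0.29). The call against AOM ended without any 1 AOM/DSS array or AOM replicate 2 or 3 (adjusted p up to 0.08) and under quantile normalization (-0.60, adjusted p = 0.056).

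Of the 9 tested carriers of amino acids and related compounds, 2 were higher and 1 lower in AOM/DSS than in control, near the 34.7% called among all genes, and 3 were higher and 1 lower after AOM (32.4%). Slc25a45 and Slc25a48 had the family's largest differences above control after AOM in limma's test. For Slc25a48 this rank rested on control levels that were not well above background, and its sign turned after normexp background correction. With slide as a block neither gene was called after AOM. Slc25a48 is known as a mitochondrial choline transporter, and Slc25a45 has been linked to methylated amino acids and carnitine synthesis. Slc25a48 levels were -4.53, -6.17 and -5.23 in the controls, -2.98, -2.83 and -2.85 after DSS, -2.94, -2.90 and -2.37 after AOM and -2.33, -2.61 and -2.23 in the AOM/DSS neoplasms. Its probe was not well above background on any control array and was so on all 9 treated arrays, which lay above every control. Slc25a48 exceeded control in limma's test by 2.92 ± 0.35 in AOM/DSS (adjusted p = 2.5e-04; at least 2.91-fold), 2.57 ± 0.35 after AOM (adjusted p = 0.0036; at least 2.29-fold) and 2.42 ± 0.35 after DSS (adjusted p = 0.022; at least 2.06-fold).

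Slc25a48 was the 1 member called after DSS alone, and this call ended without AOM replicate 2, DSS replicate 2 or DSS replicate 3 (adjusted p up to 0.11). AOM/DSS replicate 3 exceeded the controls on its slide by 3.08, and with slide as a block the AOM/DSS difference was 3.08 ± 0.52 (adjusted p = 0.01), that after AOM 2.63 ± 0.69 (adjusted p = 0.25) and that after DSS 2.11 ± 0.87 (adjusted p = 0.77). Normexp correction gave -0.24 for AOM/DSS and -0.29 for AOM, with the sign turned and no call.

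Slc25a45 levels were -2.05, -2.69 and -1.42 in the controls, -0.42, -0.08 and -0.95 after DSS, 0.39, 0.00 and -0.31 after AOM and -0.49, 0.18 and -0.43 in the AOM/DSS neoplasms. All treated arrays lay above the controls. Slc25a45 exceeded control by 1.81 ± 0.36 (adjusted p = 0.0037) in AOM/DSS and 2.08 ± 0.36 (adjusted p = 0.0061) after AOM in limma's test, and the DSS difference was 1.57 ± 0.36 (adjusted p = 0.09). The AOM/DSS difference with slide as a block was 1.63 ± 0.54 (adjusted p = 0.085).

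Slc25a44 carries branched-chain amino acids. Slc25a44 levels were -0.87, -1.17 and -1.51 in the controls, -2.01, -1.24 and -1.29 after DSS, -1.66, -1.84 and -1.65 after AOM and -2.40, -2.45 and -1.99 in the AOM/DSS neoplasms. The neoplasms lay below every control. AOM/DSS was lower than control (-1.10 ± 0.26, adjusted p = 0.0087) and than DSS (-0.77 ± 0.26, adjusted p = 0.042) in limma's test; DSS replicate 1 overlapped the neoplasms, and the call against DSS ended in 7 of 12 fits that left out 1 array: AOM replicate 2 or 3, AOM/DSS replicate 1 or 2, DSS replicate 2 or 3, or control replicate 2 (adjusted p up to 0.14). Blocking on slide gave a difference from control of -0.81 ± 0.39 (adjusted p = 0.2).

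The aspartate/glutamate carriers of the malate-aspartate shuttle were not called between neoplasm and control. Slc25a12 stood at -0.12, and Slc25a13 was called after AOM at -0.58 ± 0.20 (adjusted p = 0.0493), with AOM/DSS at -0.55 ± 0.20 (adjusted p = 0.056). The Slc25a13 call ended under median scaling (-0.41, adjusted p = 0.29), with slide as a block (-0.37) and in 11 of 12 fits that left out 1 array (all but DSS replicate 1; adjusted p up to 0.13). The glutamate carrier Slc25a22 was higher after AOM by 0.79 ± 0.25 (adjusted p = 0.035); this call ended with slide as a block (0.21, adjusted p = 0.82) and without any 1 AOM or control array or AOM/DSS replicate 2 (up to 0.099). Slc25a38, a glycine carrier of heme synthesis, was lower in AOM/DSS than in AOM (-0.75 ± 0.27, adjusted p = 0.048). That call ended under quantile normalization (-0.66, adjusted p = 0.058), with slide as a block (-0.70, adjusted p = 0.18) and without any 1 AOM or AOM/DSS array, DSS replicate 2 or control replicate 1 or 2 (up to 0.12). The ornithine carrier Slc25a15 was not called.

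Slc25a29, a carrier of basic amino acids, had the lowest member difference from control in AOM/DSS, -1.83 ± 0.71, but was not called (adjusted p = 0.068). Slc25a29 levels were 1.09, 1.61 and -0.94 in the controls, -1.30, 0.68 and 0.56 after DSS, 0.92, 0.02 and -0.70 after AOM and -1.19, -0.89 and -1.64 in the AOM/DSS neoplasms. The low control and the low DSS array were those with the highest exocrine pancreas markers, whose part in these levels was not tested.

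Of the 8 tested carriers of carnitine, cofactors and glutathione, none was higher and 3 were lower in AOM/DSS than in control (median -0.14), near the 34.7% called among all genes. Slc25a20 exchanges acylcarnitine for free carnitine, the step by which long-chain fatty acids reach oxidation. Slc25a20 levels were 1.98, 1.86 and 1.43 in the controls, 1.39, 2.02 and 1.64 after DSS, 1.36, 0.79 and 1.08 after AOM and 0.64, 0.57 and 0.80 in the AOM/DSS neoplasms. The neoplasms lay below every control and DSS array and overlapped the AOM arrays at AOM replicate 2. Slc25a20 was lower in AOM/DSS than in control (-1.09 ± 0.24, adjusted p = 0.0061) and than in DSS (-1.01 ± 0.24, adjusted p = 0.01) in limma's test, with any 1 array left out as well. Blocking on slide gave a difference from control of -0.96 ± 0.37 (adjusted p = 0.13).

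Slc25a32 carries folate or flavin. Slc25a32 levels were -0.47, -0.58 and -0.50 in the controls, -0.70, -0.66 and -0.70 after DSS, -0.91, -0.49 and -0.74 after AOM and 0.39, -0.23 and -0.17 in the AOM/DSS neoplasms. The neoplasms lay above all other arrays. AOM/DSS exceeded AOM by 0.71 ± 0.21 (adjusted p = 0.024) and DSS by 0.69 ± 0.21 (adjusted p = 0.028), while the difference from control was 0.51 ± 0.21 (adjusted p = 0.078). Both calls were lost under median scaling (0.39 and 0.46), without AOM/DSS replicate 1, and without AOM replicate 1 or 3 (against AOM, adjusted p up to 0.095) or DSS replicate 2 or 3 (against DSS, up to 0.11).

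The glutathione carrier Slc25a39 was lower in AOM/DSS than in control (-0.78 ± 0.25, adjusted p = 0.035) and than in AOM (-0.85 ± 0.25, adjusted p = 0.025). Under quantile normalization both calls ended (-0.32, adjusted p = 0.15, and -0.36, adjusted p = 0.11), as they did with slide as a block (-0.62 and -1.01); the first also ended under median scaling (-0.93, adjusted p = 0.0504) and with the mean of its probes (-0.63). The call against control was lost without any 1 AOM/DSS array, AOM replicate 2 or control replicate 1 or 2 (adjusted p up to 0.11), and that against AOM without AOM or AOM/DSS replicate 1 or 2 (up to 0.085). Its close homologue Slc25a40 was lower than control in AOM/DSS (-0.95 ± 0.22, adjusted p = 0.0071) and after AOM (-1.09 ± 0.22, adjusted p = 0.0088); both calls held with any 1 array left out and were lost with slide as a block (-0.67, adjusted p = 0.17, and -0.77, adjusted p = 0.32). Carriers of S-adenosylmethionine (Slc25a26) and NAD (Slc25a51), and the liver-type carrier Slc25a47, were called in no pairwise comparison.

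The pyrimidine nucleotide carriers Slc25a33 and Slc25a36, which supply nucleotides for mitochondrial DNA and RNA, went in opposite directions. Slc25a33 levels were -0.23, 0.20 and 0.39 in the controls, -0.25, 0.51 and -0.06 after DSS, 0.81, 1.05 and 1.12 after AOM and 1.28, 1.37 and 1.23 in the AOM/DSS neoplasms. All AOM and AOM/DSS arrays lay above all control and DSS arrays. Slc25a33 exceeded control by 1.17 ± 0.24 (adjusted p = 0.0044) in AOM/DSS and 0.87 ± 0.24 (adjusted p = 0.023) after AOM, and AOM/DSS exceeded DSS by 1.23 ± 0.24 (adjusted p = 0.0048) in limma's test. The AOM call ended without AOM replicate 2 or 3 or control replicate 1 or 2 (adjusted p up to 0.083). With slide as a block the AOM/DSS difference was 1.11 ± 0.38 (adjusted p = 0.092).

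Slc25a36 levels were -0.56, -0.64 and -0.71 in the controls, -1.09, -2.26 and -1.56 after DSS, -2.37, -1.78 and -2.69 after AOM and -1.25, -1.97 and -1.64 in the AOM/DSS neoplasms. Every treated array lay below every control. Slc25a36 was lower than control (-1.65 ± 0.33, adjusted p = 0.0091) after AOM and (-0.99 ± 0.33, adjusted p = 0.04) in AOM/DSS in limma's test, with DSS at -1.00 ± 0.33 (adjusted p = 0.16). The AOM/DSS call ended without AOM replicate 1, AOM/DSS replicate 2 or 3, DSS replicate 3 or any 1 control (adjusted p up to 0.14). With slide as a block the AOM difference was -1.48 ± 0.64 (adjusted p = 0.29).

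The mitoferrins, which bring iron in for heme and iron-sulfur clusters, were not called against control in any group. Slc25a28 was lower in AOM/DSS than in AOM (-0.59 ± 0.21, adjusted p = 0.0449). This call ended under quantile normalization (-0.32, adjusted p = 0.16), with slide as a block (-0.81, adjusted p = 0.0565) and without AOM replicate 1 or 2, any 1 AOM/DSS array, DSS replicate 3 or control replicate 1 or 2 (up to 0.13). The erythroid form Slc25a37 was called nowhere.

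The uncoupling-protein-like carriers held the member with the largest difference between the neoplasms and both single-agent groups. Slc25a27 (Ucp4) is known mainly from the nervous system. Slc25a27 levels were -3.23, -2.75 and -3.85 in the controls, -2.75, -4.55 and -5.08 after DSS, -4.11, -4.35 and -3.81 after AOM and -1.19, -1.02 and -1.88 in the AOM/DSS neoplasms. It was well above background on 2 of 3 control and 1 of 3 DSS arrays, and every neoplasm lay above every other array. AOM/DSS exceeded control by 1.91 ± 0.53 (adjusted p = 0.018), AOM by 2.73 ± 0.53 (adjusted p = 0.0066) and DSS by 2.76 ± 0.53 (adjusted p = 0.0043) in limma's test; where the probe was not above background on an array, its level there is only a bound. AOM/DSS replicates 1 and 2 exceeded AOM replicates 1 and 2 on the same slide by 3.13, and with slide as a block that difference was 3.13 ± 0.68 (adjusted p = 0.03).

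The Slc25a27 call against control ended without AOM/DSS replicate 1 or 2 or control replicate 1 or 3 (adjusted p up to 0.064), and the blocked difference was 1.39 ± 0.79 (adjusted p = 0.27). Summed markers of enteric neurons and glia were -2.21 to -1.72 in AOM/DSS and -1.44 to -0.91 in control, and 2 of the 3 tested were lower in AOM/DSS; Ret and Gfap were above background on no array.

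Slc25a30 levels were -4.30, -3.95 and -3.67 in the controls, -2.95, -3.28 and -3.82 after DSS, -3.12, -2.86 and -3.11 after AOM and -2.82, -2.71 and -2.70 in the AOM/DSS neoplasms. Slc25a30, a renal uncoupling-like carrier, was above background on 1 of 3 control and 2 of 3 DSS arrays. All AOM and AOM/DSS arrays lay above all controls. It exceeded control by 1.23 ± 0.25 (adjusted p = 0.0042) in AOM/DSS and 0.94 ± 0.25 (adjusted p = 0.02) after AOM in limma's test. The AOM call ended without AOM replicate 2 or control replicate 1 or 2 (adjusted p up to 0.074), and normexp correction turned both signs, to -0.74 and -0.70. Slc25a14 was called in no comparison.

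Slc25a46 sits in the outer mitochondrial membrane and takes part in fission and lipid transfer, and Slc25a35 has no settled substrate. Slc25a46 levels were 1.70, 2.37 and 1.97 in the controls, 1.63, 1.84 and 1.24 after DSS, 0.69, 0.74 and 1.26 after AOM and 1.65, 1.99 and 1.73 in the AOM/DSS neoplasms. The AOM arrays were the lowest group except for overlap of AOM replicate 3 with DSS replicate 3. Slc25a46 was lower after AOM than in control (-1.12 ± 0.25, adjusted p = 0.013) and higher in AOM/DSS than in AOM by 0.89 ± 0.25 (adjusted p = 0.022) in limma's test. The first call ended without AOM replicate 2 (adjusted p = 0.053), the second without AOM or AOM/DSS replicate 1 or 2 (up to 0.072) and under median scaling (0.57). The difference between AOM/DSS and AOM with slide as a block was 1.11 ± 0.31 (adjusted p = 0.0476).

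Slc25a35 levels were 0.47, 0.51 and 0.89 in the controls, -0.07, 0.77 and -0.25 after DSS, -0.85, -0.44 and -0.22 after AOM and -0.61, -0.71 and -0.16 in the AOM/DSS neoplasms. Both AOM groups lay below every control. Slc25a35 was lower than control (-1.12 ± 0.30, adjusted p = 0.016) in AOM/DSS and -1.13 ± 0.30 (adjusted p = 0.021) after AOM in limma's test. The AOM/DSS call ended without AOM/DSS replicate 1 or 2 (adjusted p up to 0.058), and the AOM call without AOM or control replicate 1 or 2 (up to 0.059) and under median scaling (-0.96).

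**Figure D3:**
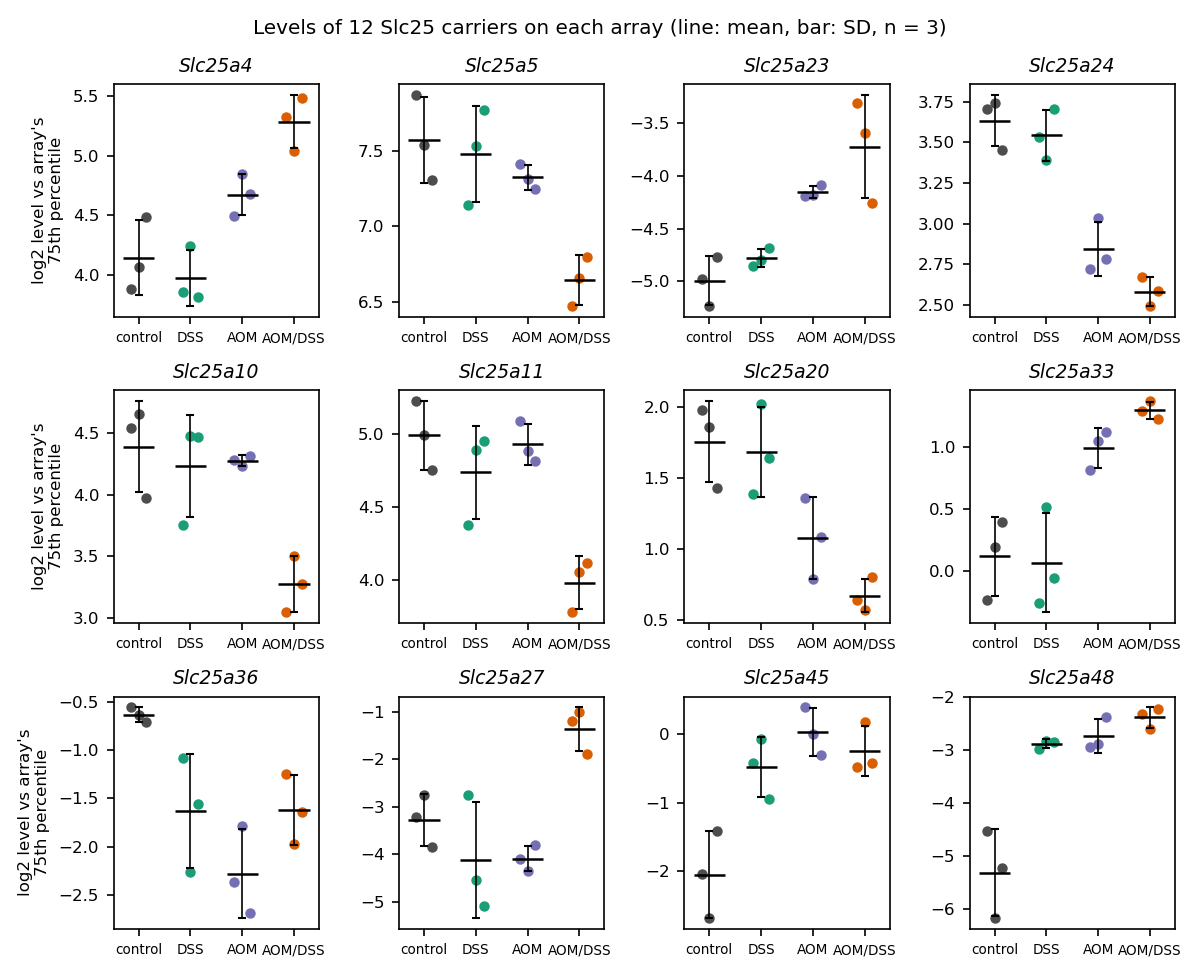
Levels of 12 Slc25 carriers on each array, in log2 units relative to the array's 75th percentile, by group, with the mean (line) and SD (bar) of 3 arrays. The neoplasms lay below all other arrays for Slc25a10 and Slc25a11 and above them for Slc25a4 and Slc25a27, and the controls lay below all treated arrays for Slc25a45 and, except after normexp background correction, for Slc25a48.

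The carriers' partners were read from lists of related genes. Among 18 enzymes that work with the carriers (malate-aspartate shuttle, citrate export, carnitine shuttle and creatine kinase), 2 were higher and 10 lower in AOM/DSS than in control, with a median of -0.76 against 0.03 for all genes, of which 17.3% were higher and 17.5% lower. The mitochondrial creatine kinases, which take up ATP exported by the translocases, were lower. Ckmt2 was not well above background in any neoplasm and differed from control by -6.34 ± 0.53 (adjusted p = 3.7e-05; at least 20.5-fold), and Ckmt1 by -2.71 ± 0.30 (adjusted p = 0.000145). Malic enzyme Me1, above background on 2 of 3 control arrays, was higher by 2.47 ± 0.69 (adjusted p = 0.019) and glutaminase Gls2 by 2.09 ± 0.46 (adjusted p = 0.0064).

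Among 21 other carriers and channels of the mitochondrial membranes 2 were higher and 10 lower (median -0.74), read against the same shares of all genes as the lists that follow. Sfxn5 of the sideroflexin carriers (-2.57 ± 0.21) and the calcium uniporter pore Mcu (-1.75 ± 0.36) were lower, while Mcub, the pore's inhibitory paralogue, was higher (2.53 ± 0.27) and above background on 1 of 3 control arrays. Among 12 genes for import of carrier proteins 3 were higher and none lower (median 0.48): Timm9 by 1.43 ± 0.37, the receptor Tomm70a by 1.14 ± 0.25 and Timm8a1 by 0.98 ± 0.30. Among 10 regulators of mitochondrial biogenesis Myc (1.57 ± 0.37) and Pprc1 were higher, and Ppargc1b (-2.52 ± 0.32), Ppargc1a (-1.55 ± 0.35) and Esrra (-1.36 ± 0.22) were lower.

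After AOM the partner enzymes had 2 higher and 3 lower, the other carriers and channels 2 and 3, the import genes 3 and 0, and the biogenesis regulators 2 and 3, where 14.8% of all genes were higher and 17.6% lower; the first 3 lists had no larger a share called than the 32.4% of all genes. After DSS limma called none of the 61 genes of these 4 lists, where 0.328% of all genes were called, and 9 had an unadjusted p under 0.05. With slide as a block, 11.7% of all genes were called between AOM/DSS and control. Limma then called 5 partner enzymes lower and none higher, and 4 of the other carriers and channels lower and 1 higher. Of the biogenesis regulators 2 were called lower and none higher. No import gene was called, and 3 of them had an unadjusted limma p under 0.05.

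**Figure D4:**
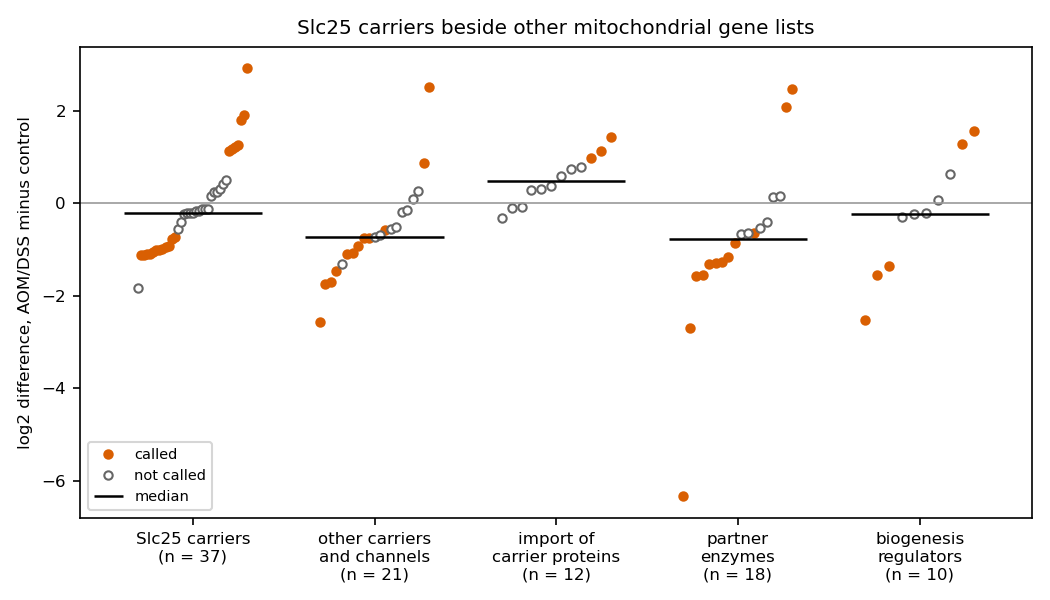
Log2 differences between AOM/DSS and control for each tested gene of 5 lists, sorted within the list; filled points had an adjusted p under 0.05 in limma's test and lines mark medians. The Slc25 carriers spread to both sides of 0 around a median of -0.20, while the medians were -0.74 for other carriers and channels, 0.48 for import genes and -0.76 for partner enzymes.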

How the data were processed

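Total RNA of 12 samples was hybridised singly to 1-colour (Cy3) Agilent arrays. The deposited scanner files hold processed signal intensities, background-corrected, per the file headers, with Agilent's Feature Extraction software in version 10.7.3.1 (10.7 in the submitters' processing notes), with a flag for each spot that is well above background. The authors' processed table, also deposited, is on a log2 scale and its columns share 1 distribution, as quantile normalization gives, a step not described in the sources used here; it served as an alternative. Spots flagged as outliers were left out, spots of a probe averaged, and log2 intensities scaled to each array's 75th percentile. A probe was kept if well above background on all 3 arrays of any group, and the brightest probe stood for its gene. RefSeq accessions named 27198 of 41174 probes. All 18917 genes entered 1 limma fit (3.58.1, R 4.3.3) of 4 group means with 3 arrays each, 2-sided, with Benjamini-Hochberg adjustment. In a simulation 18717 of 18917 genes were left unchanged, with independent normal noise for each gene and no slide effect. Of these unchanged genes 0.0321% were called between AOM/DSS and control. This is not a false-call rate for the real arrays, where slide and group overlapped. Slide came from the array barcodes. Alternatives were normexp (offset 50), median and quantile scaling, the deposited matrix, other filters, the mean of a gene's probes, slide and replicate blocks, and leaving out arrays. Array number limits the precision. Start regions and symbols came from RefSeq (GRCm38.p6), whose other coordinates were not used.

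Values for every array were given for members called in 3 or more of the 6 comparisons and for the 3 largest called rises and falls of each. The related genes named were up to 4 called with the largest change between AOM/DSS and control; Slc25a29 and Pprc1 were singled out after their values were seen. The members and lists were chosen with earlier results of these data known. Results for 1 member and for some related genes are not reported here.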

Additional observations from a re-analysis of the deposited data

Results flagged for a closer look

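For 9 of 37 members the difference between AOM/DSS and AOM departed from that between DSS and control in limma's test, a smaller share than the 35.3% of all genes called. Tissue, collection and AOM schedule differed between these arms, so that the departure cannot be tied to DSS or AOM. The departure was 3.58 ± 0.75 for Slc25a27 (adjusted p = 0.012), which stood 2.73 higher with AOM and at -0.85 without it. It was 1.66 ± 0.47 for Slc25a36 (adjusted p = 0.024; 0.66 with AOM and -1.00 without). It was 1.34 ± 0.36 for Slc25a46 (adjusted p = 0.020), 1.10 ± 0.39 for Slc25a16 (adjusted p = 0.0497) and 0.88 ± 0.29 for Slc25a32 (adjusted p = 0.040). Negative departures were found for Slc25a48 (-2.08 ± 0.50, adjusted p = 0.015; 0.35 with AOM and 2.42 without) and Slc25a45 (-1.85 ± 0.51, adjusted p = 0.022; -0.28 with AOM and 1.57 without). Slc25a22 stood at -1.17 ± 0.35 (adjusted p = 0.030) and Slc25a38 at -1.08 ± 0.38 (adjusted p = 0.047). The Slc25a48 departure rests on control levels that were well above background on 0 of 3 arrays and are only bounds. Slc25a27 was above background on 2 of 3 control and 1 of 3 DSS arrays, so its value without AOM is uncertain too. After normexp background correction 0 of the 9 departures kept their call. With slide as a block limma called none of the 37 members (adjusted p of these 9 from 0.29 to 0.91), and 3 had an unadjusted p under 0.05. Under median scaling 3 of the 9 calls ended, those of Slc25a16 (0.70, adjusted p = 0.21), Slc25a32 (0.49, adjusted p = 0.29) and Slc25a46 (0.94, adjusted p = 0.088). The calls of Slc25a27 and Slc25a48 held with any 1 array left out; the other 7 ended without at least 1 array, and 3 or 4 members were called without DSS replicate 2 or 3.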

How the results depend on the processing

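Of 53 called differences of members, 45 kept direction and call under median scaling, 43 under quantile normalization and with the deposited matrix, 48 without the filter, 52 with the mean of a gene's probes and 6 with slide as a block. For the 10 of these from members given without values per array, quantile normalization kept 5, against 38 of the other 43. Slc25a5 between AOM/DSS and AOM turned to 0.0011 under quantile normalization and 0.015 in the deposited matrix. Normexp correction kept 8 of 53 and turned Slc25a23 to -1.15, -0.81 and -1.01 (AOM/DSS against control, against DSS, AOM against control), Slc25a30 to -0.74 and -0.70 and Slc25a48 to -0.24 and -0.29 (AOM/DSS and AOM against control). Limma's counts of members called fell under normexp to 4 (AOM/DSS against control), 2 (AOM against control), 0 (DSS against control), 0 (AOM/DSS against AOM), 2 (AOM/DSS against DSS), 0 (departure) and 3 (any difference), and with slide as a block to 3, 0, 0, 3, 0, 0 and 1. Under normexp 2762, 1865, 1, 1273, 1907 and 73 of 18917 genes were called in the first 6 of these. For any difference no count of all genes is given in these fits, so the member counts cannot be set against the whole array. The filter on all 12 arrays, which removed Slc25a48, left 0 after DSS and gave 3 higher and 13 lower between AOM/DSS and control.

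Leaving out 1 array, or control replicate 3 with DSS replicate 1 (chosen after seeing their pancreas markers), gave ranges of 13 to 22 (AOM/DSS against control), 5 to 17 (AOM against control), 0 to 5 (DSS against control), 2 to 14 (AOM/DSS against AOM), 6 to 18 (AOM/DSS against DSS), 0 to 0 (DSS against AOM), 3 to 15 (departure) and 12 to 26 (any difference). Of all genes, 4331 to 8061, 1973 to 7925, 9 to 4344 and 3383 to 8607 were called, in the same order. For the next comparisons and the departure the ranges were 3355 to 9429, 0 to 344 and 3590 to 8869. Of the 53 differences, 26 kept their call with any 1 array left out. The cause of the other changes was not tested. The labels do not say that replicate numbers pair samples. Deviations of same-numbered samples correlated by a median r of 0.08 (-0.27 to 0.25, 18 pairs) and those of differently numbered samples by -0.08 (-0.26 to 0.38, 36 pairs), so that not every same-numbered pair was positive. With the replicate block 15, 10, 1, 7, 10 and 0 members were called in the 6 comparisons, 6 for the departure and 17 for any difference. Of 18917 genes, 6164, 5997, 40, 6748, 6505 and 0 were called in these 6 comparisons and 6022 for the departure. For any difference no count of all genes is given here or with arrays left out. A 75th percentile over named probes only, also chosen after seeing the data, kept 50 of 53 calls. Signal over background limits Slc25a23, Slc25a27, Slc25a30 and Slc25a48 most.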
